A study of Homo sapiens with 6 samples.

Results

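The genes described here are 10 genes of the NRF2 oxidative stress pathway: NFE2L2, KEAP1, MAFG, SLC7A11, GCLC, GCLM, TXN, TXNRD1, SRXN1 and NQO1. They were chosen by name from the known pathway, out of 29354 gene names in the expression table, and all 10 were found there. Under their names stood 26 of 42634 listed peaks of N6-methyladenosine (m6A), a methylated base of mRNA. The same held for 15 of 19983 peaks that the authors compared between treatments. Of the 26, 5 lay in exons annotated to another gene, and so did 4 of the 15.

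The cells were Kasumi-1, an established line from human acute myeloid leukaemia with the RUNX1-RUNX1T1 fusion, labelled WT for genotype. All 6 libraries came from cells given 100 uM CoCl2, a hypoxia mimic, together with 10 nM echinomycin, a DNA-binding blocker of HIF-1, for 24 hours. The assay enriches short pieces of polyadenylated RNA with an m6A antibody (IP) and sequences them together with the unenriched pieces (input). There were 3 IP and 3 input libraries, from 3 biological replicates per the series' design text. The authors' comparison set the combined treatment over CoCl2 alone, and so asks what echinomycin adds to the hypoxia mimic. Libraries of CoCl2 alone and of untreated cells were not analysed here, so RNA levels are given for the combined treatment only.

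NRF2, the protein of NFE2L2, is a transcription factor that is made continuously and destroyed at once in resting cells. KEAP1 binds it and hands it to the CUL3 ubiquitin ligase. Oxidants and electrophiles modify cysteines of KEAP1, NRF2 then escapes, pairs with a small MAF protein such as MAFG, and binds antioxidant response elements beside genes of glutathione synthesis, the thioredoxin system and quinone detoxification. Myeloid cells use this program against the oxidants they make, and leukaemia cells can use it against drugs.

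The antioxidant response element is the sequence through which these genes are known to be joined into a pathway, so its occurrences are shown first. Its core, TGACNNNGC, was searched on both strands of the RefSeq promoters of build GRCh38.p14, each with 250 bases before and 50 bases after a gene start. The table held 12 starts of 9 members, all but SLC7A11. The core stood in 4 of these 12, in GCLM, TXNRD1 and KEAP1, against 13.3% of all 35116 promoters in the table. The windows below read 5′ to 3′ along the gene's own strand, with the core in capitals, and a core on the opposite strand reads as its reverse complement.
GCLM, chr1:93909450-93909470, minus strand: atttctGCTTAGTCAttgtct
TXNRD1, chr12:104215674-104215694, plus strand: gggctaTGACTTCGCtgttgt
TXNRD1, chr12:104215765-104215785, plus strand: ccttcgGCTCCGTCAgttccc
TXNRD1, second start, chr12:104286924-104286944, plus strand: atttctGCTTTGTCAttctga
KEAP1, chr19:10502811-10502831, minus strand: ttattgTGACACGGCgggcgc
KEAP1, chr19:10502788-10502808, minus strand: ggctctGCTTAGTCAtggtga
The core of GCLM and that of the last KEAP1 window had the same letters throughout, and the others differed from these and from each other. A match describes letters only, the files hold no measurement of NRF2 binding, and the absence of a match says nothing of more distant sites.

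Among the 10 genes, RNA of the regulators MAFG, KEAP1 and NFE2L2 was more abundant than that of GCLC and GCLM, which serve glutathione synthesis. MAFG, the small MAF partner, had the highest level of the 10, and SLC7A11, the cystine transporter subunit, the lowest. Levels are the authors' deposited FPKM, fragments scaled to transcript length and library size, so different genes can be set side by side. In bulk RNA, fewer cells of a type and less RNA per cell cannot be told apart. A gene was called expressed at a mean of 1 FPKM or more, which 9 of the 10 reached.

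MAFG stood at 92.5, 85.8 and 93.7 FPKM in replicates 1, 2 and 3, a mean of 90.7 ± 4.27 FPKM (SD, n = 3) and above 98.2% of expressed genes. It made up 92.3% ± 0.128 (SD, n = 3) of the summed FPKM of the 3 small MAF genes MAFG, MAFF and MAFK, the other two of which were set beside it after their values were seen. KEAP1, the sensor, stood at 32.2, 34.7 and 36.9 FPKM (mean 34.6 ± 2.33, SD, n = 3). NFE2L2 itself was at 10.5, 10.0 and 11.9 FPKM (mean 10.8 ± 0.969, SD, n = 3). Within each library KEAP1 was 3.08-fold, 3.45-fold and 3.10-fold above NFE2L2, so the inhibitor's RNA exceeded that of its target in every replicate.

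In glutathione synthesis the levels of GCLM and SLC7A11 were low, while GCLC lay near the middle of expressed genes. SLC7A11, which imports the cystine that supplies cysteine, had 1.005, 0.938 and 1.01 FPKM (mean 0.985 ± 0.0409, SD, n = 3), at the limit of 1 FPKM. SLC3A2, the heavy chain with which SLC7A11 pairs and which also serves other amino acid transporters, averaged 50.2 ± 2.40 FPKM (SD, n = 3). GCLC, the catalytic subunit of glutamate-cysteine ligase, had 5.68, 5.59 and 6.08 FPKM (mean 5.78 ± 0.261, SD, n = 3), above 52.5% of expressed genes. GCLM, the modifier subunit that raises the activity of GCLC, had 3.32, 2.55 and 3.39 FPKM (mean 3.09 ± 0.468, SD, n = 3). The catalytic subunit thus exceeded the modifier in all 3 libraries, by 1.71-fold, 2.19-fold and 1.79-fold.

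The thioredoxin system was expressed more strongly. TXN, thioredoxin itself, had 37.7, 36.3 and 42.8 FPKM (mean 39.0 ± 3.43, SD, n = 3). TXNRD1, the NADPH-dependent reductase that recharges it, had 16.0, 14.0 and 16.2 FPKM (mean 15.4 ± 1.20, SD, n = 3). SRXN1, sulfiredoxin, which repairs overoxidised peroxiredoxins, had 10.4, 10.1 and 11.1 FPKM (mean 10.5 ± 0.487, SD, n = 3). NQO1, the quinone reductase often used as a readout of NRF2, was low, at 2.44, 2.54 and 2.40 FPKM (mean 2.46 ± 0.0754, SD, n = 3). Thioredoxin pseudogenes can share reads with TXN; the 3 in the table, TXNP4, TXNP5 and TXNP6, averaged 0.454, 0 and 0.0382 FPKM.

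**Figure D1:**
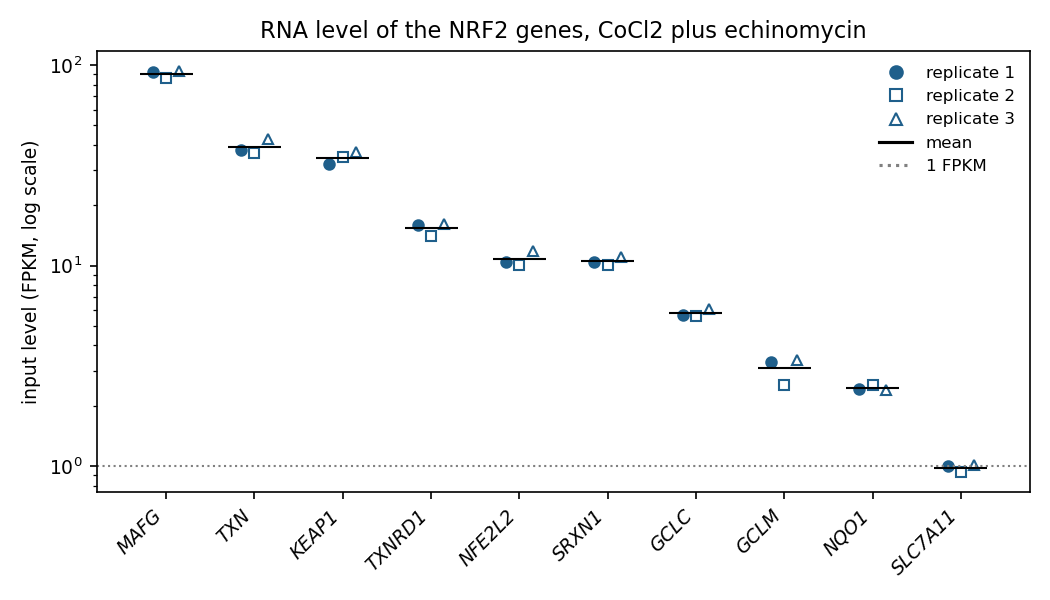
Input level in FPKM on a log axis for the 10 genes, ordered by mean, after CoCl2 plus echinomycin. Each symbol is 1 of 3 input libraries and the bar is their mean; MAFG lies at 85.8 to 93.7 FPKM and SLC7A11 at 0.938 to 1.01 FPKM, around the dotted line of 1 FPKM.

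From the highest to the lowest mean the order was MAFG, TXN, KEAP1, TXNRD1, NFE2L2, SRXN1, GCLC, GCLM, NQO1 and SLC7A11. The ranges of the 3 libraries overlapped between TXN and KEAP1 and between NFE2L2 and SRXN1, so the spread between libraries does not separate those neighbours. Within a library, TXN was above KEAP1 in 3 of 3 and NFE2L2 above SRXN1 in 2 of 3. No other neighbouring ranges overlapped, although GCLM at its lowest (2.55 FPKM) and NQO1 at its highest (2.54 FPKM) nearly met. An exact permutation test of 3 libraries against 3 cannot go below a two-sided p of 0.10, nor one paired by library below 0.25, so no test was run on these levels. The highest value of the 3 libraries fell in replicate 3 for 9 of the 10 genes and in replicate 2 for NQO1, while 26.6% of all expressed genes were highest in replicate 3. The lowest fell in replicate 2 for 8 of the 10. The share of all expressed genes lowest in replicate 2 was not computed, and 45.3% were highest there.

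The libraries as a whole were alike, with FPKM sums of 202792 to 206876, and the number of reads per library is unknown from FPKM. Of 8 myeloid and progenitor markers, 6 reached 1 FPKM, led by MPO at 56.2 ± 2.74 FPKM (SD, n = 3), and their sum ranged from 160 to 178 FPKM; the granule genes ELANE (0.0185 FPKM) and AZU1 (0.589 FPKM) lay near 0. Of 11 markers of other cell types, 3 reached 1 FPKM, namely CD3D (32.1), EPCAM (8.79) and CD79A (5.03), while CD3E (0.181), COL3A1 (0.00217) and ALB (0.159) lay near 0, and 2 of the 11 were not analysed here. Their summed level ranged from 44.8 to 50.8 FPKM, and their part in the results was not tested.

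m6A was listed on transcripts of 9 of the 10 genes. A listed peak is one that the authors' peak list gives for the combined treatment, with a linear fold enrichment of IP over input, and these values are the authors' own. NFE2L2 had 11 listed peaks, TXNRD1 5, KEAP1, MAFG and GCLC 2 each, and SLC7A11, GCLM, SRXN1 and NQO1 1 each. TXN, on chromosome 9 at 110243810 to 110256507, had none. Of genes with a mean of 1 FPKM or more, 82.1% had a listed peak, beside 8 of the 9 members at that level. At or above the mean level of TXN, 541 of 738 genes (73.3%) had one, and the other 197 (26.7%) had none. At least 11 listed peaks were found in 123 genes, 0.747% of those with any. The authors' FDR was under 0.05 for 24 of the 26, beside 87.4% of all listed peaks.

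Of the 26 listed peaks, 12 (46.2%) were labelled 5' UTR, against 23.1% of all listed peaks. Of these 12, NFE2L2 alone held 5. In 3' UTRs lay 5 (19.2%, against 42.5%) and in other exons 9 (34.6%, against 34.3%). Their median fold enrichment was 3.48, against 4.53 over all listed peaks, and 10 of the 26 exceeded that value. Peaks of 1 gene share a transcript and are not independent, and no test was made of these shares. The label names a single region, although 13 of the 26 peaks were split into more than 1 exonic block.

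The peak list gave NFE2L2 its highest enrichment in 5' UTR sequence, although far inside the annotated span of the gene. A 5' UTR peak on chromosome 2 at 177264359 to 177265515, in 2 blocks with 499 exonic bases, had a fold enrichment of 9.31 (log10 FDR -10.7). FDR is the authors' false discovery rate, and a log10 FDR below -1.30 corresponds to an FDR under 0.05. Next to it a second 5' UTR peak at 177263779 to 177264779 had 5.59 (log10 FDR -10.3) and shared 190 exonic bases with it. Farther upstream, the 5' UTR peaks at 177287481 to 177310732 and 177287689 to 177310965 had 5.72 and 2.15 and shared 89 exonic bases. Both lay inside the span of AC019080 (177283508 to 177392691), a gene on the same strand. Which gene's RNA they stand for was not tested. The best supported peaks of the gene were less enriched. They lay in exon 5 of 5 at 177230931 to 177231408 (2.78, log10 FDR -111) and at 177231468 to 177231975 (1.97, log10 FDR -38.5). The remaining peaks not annotated to an exon of another gene were a 5' UTR peak at 177234230 to 177263570 of 3.31 (log10 FDR -16.6) and a 3' UTR peak at 177227625 to 177227893 of 2.95 (log10 FDR -3.07).

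KEAP1 was marked at its 3' end. Its 3' UTR peak on chromosome 19 at 10486125 to 10489302 had a fold enrichment of 4.13 and a log10 p of -394. Of its 805 exonic bases, 694 formed a block that ended at the last base of the gene. An exonic peak at 10491683 to 10491981 was weaker, at 2.07 (log10 FDR -55.2). MAFG was marked from its start into the middle of the gene. Its larger peak, on chromosome 17 at 81922492 to 81927735, had 6.47 (log10 FDR -299), and 208 of its 1019 exonic bases lay in a block that began at the first base of the gene, while a block of 566 bases lay 4678 to 5243 bases downstream. The smaller peak, at 81922899 to 81924189, had 2.67 (log10 FDR -68.4) and shared 224 exonic bases with the larger.

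GCLC carried a peak in a 5' UTR and in its 3' UTR. Its 5' UTR peak on chromosome 6 at 53544614 to 53548137 had a fold enrichment of 9.94 (log10 FDR -10.4), above 85.5% of all listed 5' UTR peaks. That peak began 68833 bases into the annotated span of 119630 bases. The 3' UTR peak of GCLC at 53498508 to 53500094 had 4.90 with far stronger support (log10 FDR -213). Peaks of the other glutathione genes had weaker support. SLC7A11 had a 3' UTR peak on chromosome 4 at 138171824 to 138179263 of 3.61 (log10 FDR -4.98). GCLM had an exonic peak of 61 bases on chromosome 1 at 93908803 to 93908863 of 4.66, whose FDR of 0.10 missed 0.05.

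In TXNRD1 the 3' UTR peak on chromosome 12 at 104346103 to 104348809 had a fold enrichment of 2.87 (log10 FDR -112). Of its 5' UTR peaks, the one at 104287020 to 104287169 had 1.49, above 2.68% of all listed 5' UTR peaks. The one at 104288875 to 104289084 had 1.86, above 8.91% of them. Both lay far inside the annotated gene, between 71241 and 73305 bases from its start. SRXN1 had a peak on chromosome 20 at 647789 to 654294 of 4.86 (log10 FDR -85.2). It was labelled 5' UTR, yet 1129 of its 1193 exonic bases lay 4283 to 5411 bases into a gene of 6586 bases, and 64 lay upstream of the gene. NQO1 had a peak in its first 209 bases, on chromosome 16 at 69726460 to 69726668, of 4.42 (log10 FDR -2.67).

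**Figure D2:**
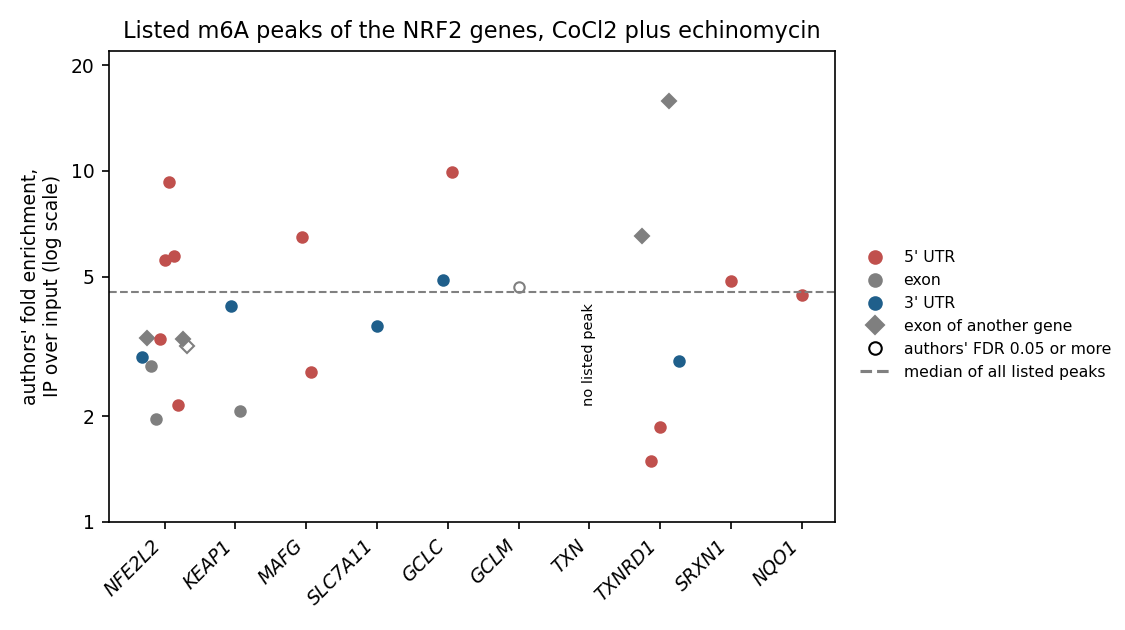
The authors' fold enrichment of IP over input on a log axis for each of the 26 listed peaks, by gene and in order of position. Colour gives the region, diamonds mark peaks in an exon of another gene, open symbols an FDR of 0.05 or more, and the dashed line the median of all listed peaks, 4.53; the highest value, 15.8 in TXNRD1, is a diamond.

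Of the 26 listed peaks, 5 were annotated to an exon of another gene inside the span of NFE2L2 or TXNRD1, which is 19.2% against 6.86% of all listed peaks. The highest enrichment of all 26, at 15.8 (log10 FDR -3.17), was one of them. It lay within TXNRD1 at 104304128 to 104304397, in the single exon of EID3, a gene on the same strand with 0.252 ± 0.163 FPKM (SD, n = 3). A TXNRD1 peak of 6.52 at 104262314 to 104262431 lay in an exon of AC089983, a gene on the opposite strand with 0.348 ± 0.137 FPKM (SD, n = 3). The 3 NFE2L2 peaks of this kind lay in exons of AC019080 (2 peaks, of 3.31 and 3.17) and in the pseudogene DNAJC19P5 (3.35). The count of 5 rests on exon labels, so a peak labelled UTR could not enter it. Whether reads were counted by strand is not stated, and which gene's RNA these 5 peaks stand for was not tested.

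When echinomycin was added to CoCl2, m6A enrichment rose on MAFG and fell on NFE2L2, KEAP1, SRXN1 and SLC7A11, by the peak of lowest p of each gene in the authors' deposited table. For KEAP1 this is a small change, -0.21, in its weaker exonic peak, since its 3' UTR peak was not compared. That value lay above the median of all tested peaks, -0.43. SLC7A11 had a mean of 0.985 FPKM, at the limit of expression. TXNRD1 rose slightly in its 3' UTR. GCLC and NQO1 did not pass the authors' FDR, and GCLM and TXN had no tested peak. Values are the authors' log2 fold changes of enrichment, not of RNA level, with the combined treatment over CoCl2, and a peak was called changed at an FDR under 0.05. Of the 15 tested peaks, 4 rose, beside 23.1% of all peaks of the authors' deposited table called higher. A further 5 fell, beside 45.8% called lower, so that 9 of 15 were called either way, beside 68.9%. By gene, 2 of 8 tested were higher, beside 22.8% of 11126 tested genes, and 4 were lower, beside 53.1%, a total of 6 called beside 75.9%. A tested peak was found in 65.4% of genes at 1 FPKM or more, beside 7 of the 9 members at that level. At an FDR under 0.01, 3 peaks were higher (18.5% of all) and 4 lower (38.8%), and with a change of 2-fold or more 1 was higher (6.01%) and 2 were lower (11.2%), by the authors' deposited table.

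**Figure D3:**
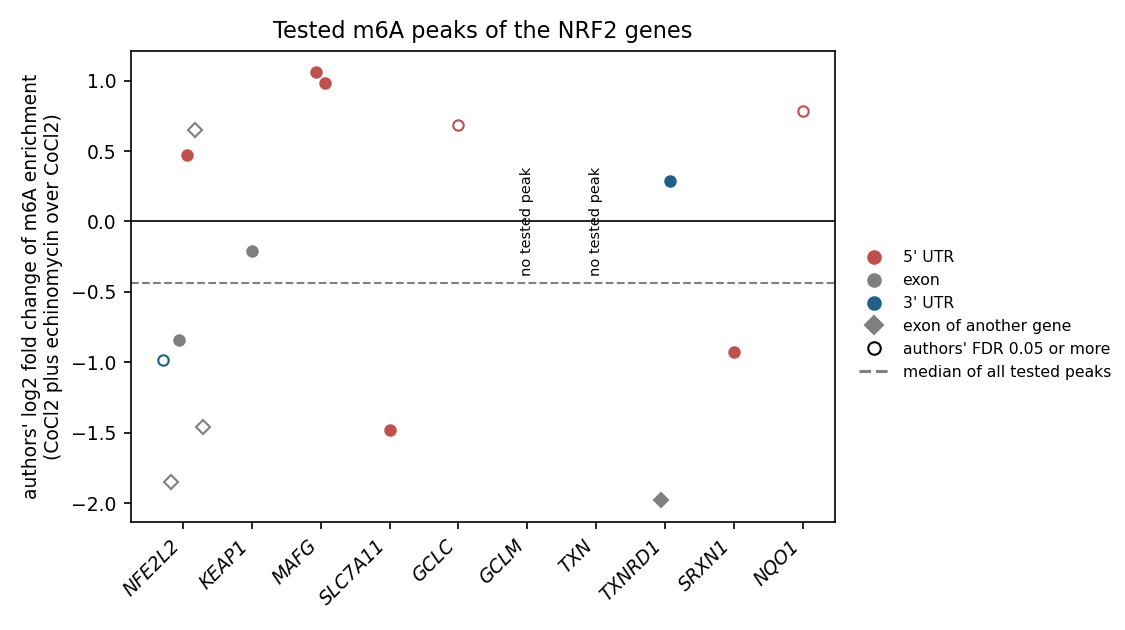
The authors' log2 fold change of m6A enrichment, CoCl2 plus echinomycin over CoCl2, for each of the 15 tested peaks by gene. Colour gives the region, diamonds mark peaks in an exon of another gene and open symbols an FDR of 0.05 or more; the dashed line is the median of all tested peaks, -0.43, and the MAFG peaks lie highest, at 1.06 and 0.99.

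Among the regulators, MAFG and NFE2L2 moved in opposite directions by their peaks of lowest p. The MAFG peak at 81922522 to 81927735 rose by 1.06 in the authors' deposited table (log10 FDR -105), stronger support than for 98.9% of all tested peaks. The second MAFG peak, at 81922899 to 81924189, rose by 0.99 (log10 FDR -22.6) in the authors' deposited table. These peaks shared 224 exonic bases, so they are not separate measurements. The peak in the last exon of NFE2L2, at 177230901 to 177231975, was at -0.84 in the authors' deposited table (log10 FDR -79.6), over a stretch that holds both of its listed exon 5 peaks. A small 5' UTR peak of 210 exonic bases in NFE2L2, at 177234230 to 177263570, rose by 0.47 (log10 FDR -1.41) in the authors' deposited table. NFE2L2 thus had peaks called both ways, as did TXNRD1 and 22.9% of all genes with 2 or more tested peaks.

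The other 4 tested peaks of NFE2L2 were not called. They were at -0.98 in the 3' UTR, -1.85 in DNAJC19P5, and 0.65 and -1.46 in exons of AC019080, by the authors' deposited table. The exonic peak of KEAP1 at 10491653 to 10491981 was at -0.21 in the authors' deposited table (log10 FDR -1.93), a small change that passed.

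In glutathione synthesis, SLC7A11 had the lowest value among called peaks of a member's own exons, -1.48 in the first 241 bases of the gene, at 138242109 to 138242349 (log10 FDR -3.85 in the authors' deposited table). No listed peak of the combined treatment overlapped it, and it was the sole one of the 15 (6.67%) without such an overlap, beside 10.8% of all tested peaks. The GCLC 5' UTR peak at 53544704 to 53548077 was at 0.69 and missed the threshold (log10 FDR -1.10) in the authors' deposited table.

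In the thioredoxin system, SRXN1 fell by 0.92 in the authors' deposited table (log10 FDR -69.2), over a peak on chromosome 20 at 647312 to 675561. Of its 1789 exonic bases, 1606 lay inside SRXN1 and 183 lay in blocks upstream of the gene, the farthest beginning at position -22361 relative to the gene's first base. The 3' UTR peak of TXNRD1 at 104348360 to 104348809 rose by 0.29 (log10 FDR -4.23) in the authors' deposited table. The peak in the EID3 exon, at 104304098 to 104304637, was at -1.98 (log10 FDR -2.15) in the authors' deposited table, so the direction given for TXNRD1 turns if that peak stands for the gene. The NQO1 peak in the first 150 bases, at 69726519 to 69726668, was at 0.78 with a log10 FDR of -0.61 in the authors' deposited table and did not pass.

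**Figure D4:**
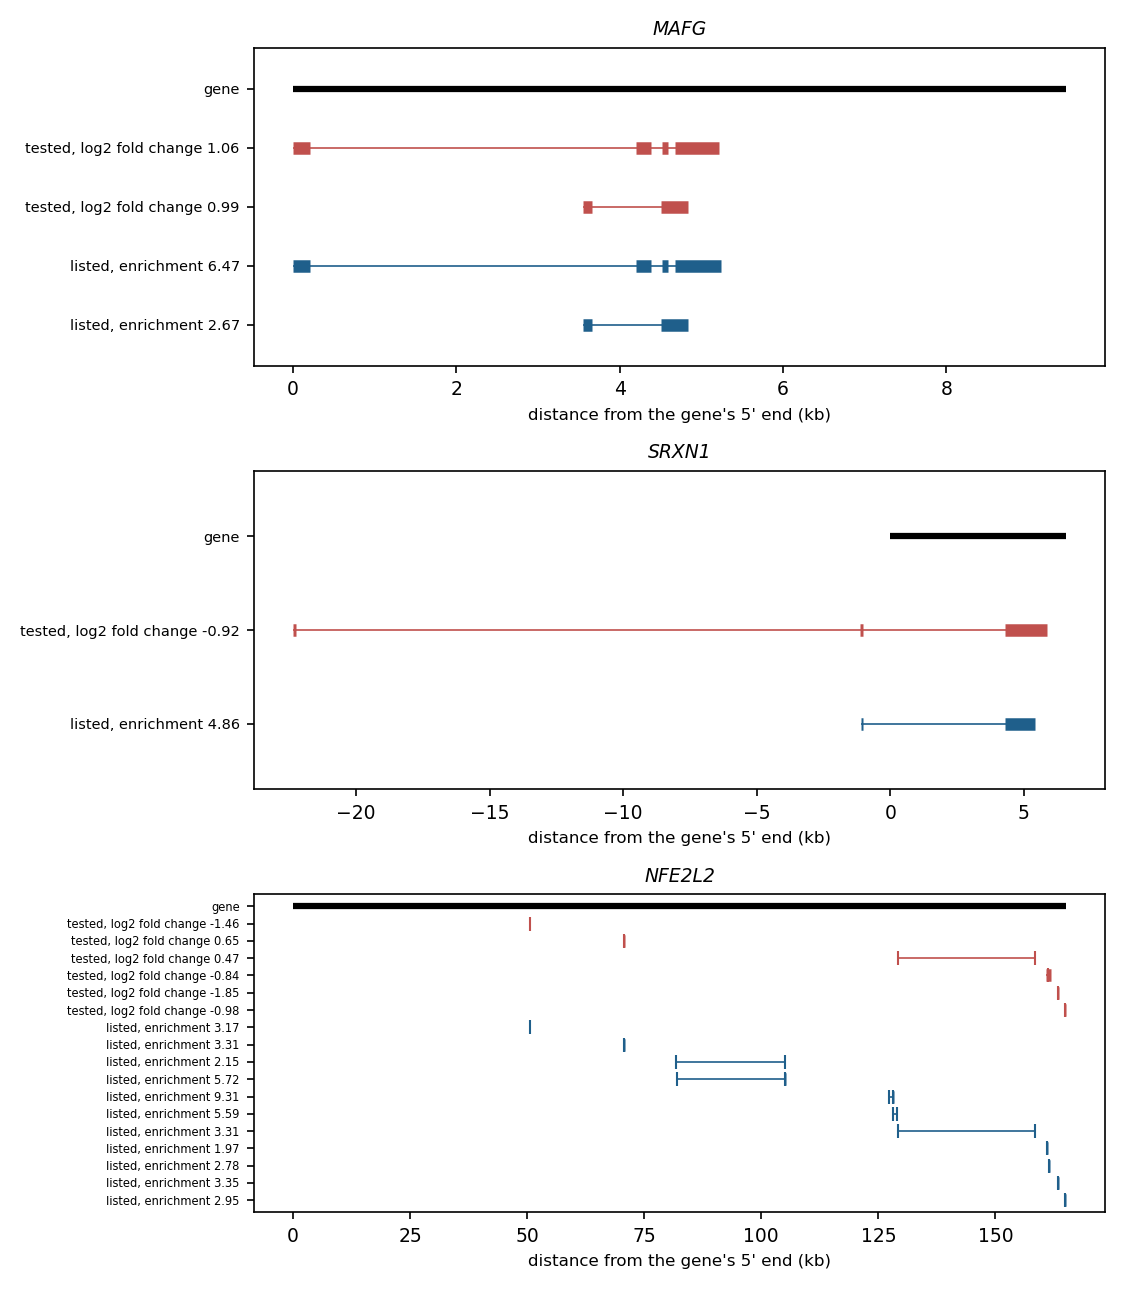
Position of the tested (red) and listed (blue) peaks of MAFG, SRXN1 and NFE2L2 in kilobases from the gene's 5' end, with thick bars (ticks for NFE2L2) for exonic blocks, thin lines for the spans between them and the black bar for the gene. The SRXN1 peaks keep most of their exonic bases inside the gene and have small blocks upstream of it, while the NFE2L2 peaks spread between 50416 and 165072 bases from the start of the gene.

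The median log2 fold change of the 15 peaks was -0.21, against -0.43 over all peaks of the authors' deposited table. Without the 4 peaks in exons of other genes it was 0.29 over 11 peaks, which include the 2 MAFG peaks that share exonic bases. The median of all tested peaks without such exons was not computed. The direction follows the way the table's name orders its conditions. It was checked by overlap with the listed peaks: of the 100 tested peaks with the highest log2 fold changes 93 overlapped a listed peak of their gene, and of the 100 with the lowest 12 did. The authors' deposited table gives 1 value per peak, with no replicate values and no error. How its FDR treats variation among replicate libraries is not stated.

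Some of the best supported m6A peaks of these genes were not among those compared. The 3' UTR peaks of KEAP1 and GCLC overlapped no tested peak, whereas 81.5% of all listed 3' UTR peaks with a log10 FDR of -100 or below did. The 5' UTR peaks of NFE2L2 with enrichments of 9.31, 5.59 and 5.72 also overlapped none. For these sites the tables give no value for the effect of echinomycin. In all, 15 of the 26 listed peaks overlapped a tested peak, and 47.0% of all listed peaks did.

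Other genes of the pathway were taken from 7 lists with 53 genes. Of these, 28 had a tested peak, and by the peak of lowest p 6 were higher and 16 lower by the authors' deposited table. That stands beside 22.8% and 53.1% of all tested genes. Their median log2 fold change was -0.51, against -0.50 over all genes of the authors' deposited table.

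Among 7 tested regulators and partners of NRF2, 2 rose and 5 fell. One that fell, MAFK, named after its values were seen, was at -0.48 by its peak of lowest p in the authors' deposited table and had another peak, at 0.74, called higher. SQSTM1, an autophagy receptor that binds KEAP1, rose by 1.95 (log10 FDR -15.5) and CUL3, the ligase scaffold, rose by 0.26 (log10 FDR -1.94) in the authors' deposited table. BACH1, a repressor that competes with NRF2 at antioxidant response elements, was at -0.74 (log10 FDR -76.4) in the authors' deposited table. Of its 3 tested peaks, with a mean of -0.47, another was at -1.64 and the remaining one, not called, went the other way. NFE2L1, a relative of NFE2L2 that drives proteasome genes, was at -0.46 (log10 FDR -290) in the authors' deposited table, and another of its peaks, which did not pass, stood at 0.64. NFE2L1 was also the most abundant of the list, at 147 ± 4.97 FPKM (SD, n = 3), while CUL3 stood at 3.26 ± 0.192 FPKM (SD, n = 3).

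Of 6 tested genes of glutathione synthesis and use, 2 rose and 3 fell by the authors' deposited table. GSTM3, a glutathione transferase, rose by 1.38 (log10 FDR -7.15), and GPX1, a glutathione peroxidase with 178 ± 3.82 FPKM (SD, n = 3), rose by 0.28 (log10 FDR -6.99) in the authors' deposited table. GSS, glutathione synthetase, was at -0.72 (log10 FDR -8.69) and SLC3A2 at -0.59 (log10 FDR -71.2) in the authors' deposited table. Among NADPH supply genes, PGD, an enzyme of the pentose phosphate pathway with 56.6 ± 1.21 FPKM (SD, n = 3), was at -0.16 (log10 FDR -4.37) in the authors' deposited table.

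Of 4 tested thioredoxins and peroxiredoxins, 1 fell and 3 were not called, while by the authors' deposited table their log2 fold changes had a median of 0.86, with PRDX1 (2.17) and PRDX2 (1.40) highest and neither passing. These 2 were named after their values were seen, and PRDX2 had a mean of 0.422 FPKM, below the limit of 1 FPKM. TXNRD2, the mitochondrial thioredoxin reductase, was at -1.31 (log10 FDR -16.0) in the authors' deposited table. PRDX5, a peroxiredoxin, was the most abundant of the list, at 101 ± 6.55 FPKM (SD, n = 3), and had no tested peak. Of 4 tested detoxification and export genes, 1 rose and 2 fell. UGDH, which supplies glucuronic acid, rose by 0.61 (log10 FDR -2.05) in the authors' deposited table. ABCC1, an exporter of glutathione conjugates, was at -0.25 (log10 FDR -4.99), and the quinone reductase NQO2 at -0.90 (log10 FDR -3.90) in an exon annotated to another gene, by the authors' deposited table. EPHX1, an epoxide hydrolase, was the most abundant of the list, at 22.3 ± 0.271 FPKM (SD, n = 3), and had no tested peak.

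HMOX1, haem oxygenase and a classical target of NRF2 and BACH1, had 16.3 ± 2.87 FPKM (SD, n = 3), and its 5' UTR peak rose by 0.89 (log10 FDR -7.31) in the authors' deposited table. FTH1, the ferritin heavy chain, was at -0.55 (log10 FDR -206) in the authors' deposited table, while FTL, the light chain, lacked a listed peak at a level of 2181 ± 41.2 FPKM (SD, n = 3). Both ferritin genes have processed copies, and GSTM3 has close paralogs, that can share reads. Among genes of superoxide and peroxide removal, both tested genes fell in the authors' deposited table, beside 53.1% of all tested genes called lower. SOD2, the mitochondrial superoxide dismutase, was at -0.73 (log10 FDR -55.6) in the authors' deposited table. OSGIN1, an oxidative stress-induced growth inhibitor, was at -0.77 (log10 FDR -2.94) in the authors' deposited table. Its mean of 0.904 FPKM lay below the limit of 1 FPKM. SOD1, the cytosolic dismutase, stood at 50.5 ± 1.64 FPKM (SD, n = 3) without a listed peak.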

How the data were processed

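Input RNA and m6A pulldown libraries of Kasumi-1 cells were analysed from 3 deposited tables. FPKM per gene and input library was deposited by the authors, per the file headers. The deposited peak list holds fold enrichment as a linear ratio and a p-value for each peak, with log10 p and log10 FDR treated as a score. The deposited differential list holds, per peak, a log2 fold change beside a p-value and a log10 FDR (also a score). HISAT2, fastp, ChIPseeker and HOMER are named in the submitters' processing notes without role or version. For the peak caller, genome build and FPKM tool, names were not given in the sources used here. Positions are those of the tables. The FPKM table held 6 other per-sample columns that match no labelled sample and were not used. The members and lists were chosen with earlier results of these data known.

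Members were matched by gene name, and repeated lines were not found among them. Peaks overlapped when at least 1 base was shared. Log2 ratios of low FPKM values between libraries did not pile up at fixed steps (0.667% in the fullest bin), so depth is unknown and no interval was computed. Named genes were all members, and in each pathway list the called genes with the 2 lowest p in each direction and the most abundant gene; HMOX1, SQSTM1, BACH1 and CUL3 were named in any case. A gene that this rule names is not reported here. Alternatives were FDR, fold, peak choice, overlap, expression limit, scaling, pseudocount and leaving out each replicate. The overlap function was checked on 2000 simulated interval pairs, with 0 in error. The call function was given 200 peaks whose FDR was set to pass, and it called all 200. That checks the code and says nothing of the power to find changed peaks. Python 3.11.15, numpy 2.4.6, pandas 2.3.3 and matplotlib 3.10.9 were used.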

Additional observations from a re-analysis of the deposited data

How the results depend on the processing

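With a change of 2-fold or more, 1 member peak was higher (6.01% of all tested peaks) and 2 were lower (11.2%). Of the other pathway genes, 2 were higher and 1 was lower at that limit. For the gene counts in this paragraph, shares over all genes were not computed, so these counts show only how the settings move them. With the peak of highest absolute log2 fold change, and likewise with the mean over a gene's tested peaks, 1 member gene was higher: TXNRD1 turned, to -1.98 and -0.85 in the authors' deposited table, because the EID3 exon then enters, and without peaks in exons of another gene, an alternative chosen after seeing the data, it was 0.29. With the peak of highest absolute change NFE2L2 was represented by the DNAJC19P5 exon, at -1.85 and not called in the authors' deposited table, so that 4 genes were still lower with TXNRD1 in its place; with the mean, 5 were lower. At an FDR under 0.01, 3 member peaks were higher and 4 lower. With listed peaks at an FDR under 0.05, 8 members kept a peak. Without replicate 2, 10 members reached 1 FPKM, since SLC7A11 lies at that limit, and at 5 FPKM 7 did. Without replicate 3, 8 members kept their place in the order of levels, as NFE2L2 and SRXN1 changed places. Overlap limits, TPM-like scaling and the pseudocounts of 1 and 0.1 changed no count. No paired analysis was possible because labelled replicate values were used for input libraries of 1 treatment only, and the peak tables hold none. Depth per library is unknown, so peaks with weak support cannot be weighed by it.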
